A study of Mus musculus with 4 samples.

Results

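A set of 9 genes of the neuronal sodium channel was followed through the birth and maturation of granule cells in the adult mouse dentate gyrus. They are 4 pore-forming alpha subunits (Scn1a, Scn2a, Scn3a and Scn8a), 2 accessory beta subunits (Scn2b and Scn3b) and 3 intracellular fibroblast growth factors (Fgf12, Fgf13 and Fgf14). The members were named gene by gene, with no threshold on a measured value, and all 9 of 9 were found among the 45706 features of the count matrices. All 9 also passed the filter on low counts, which kept 13513 genes for testing. Scn2a is listed under its older symbol Scn2a1.

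Voltage-gated sodium channels carry the inward current that starts and propagates the action potential, and they are concentrated at the axon initial segment. Each channel is built around one alpha subunit, which forms the pore and carries the inactivation gate, and beta subunits modify its gating and its attachment at the membrane. The intracellular FGFs, unlike secreted FGFs, stay inside the cell, bind the tail of the alpha subunit and shift how readily the channel inactivates. In rodent brain Scn3a is known as an early, largely developmental alpha subunit, whereas Scn1a, Scn2a and Scn8a serve mature neurons.

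The study labelled neural stem and progenitor cells with tamoxifen and sorted the nuclei of their adult-born progeny 1, 2, 4 or 8 weeks later (cohorts w1, w2, w4 and w8) for single-nucleus RNA-seq. All 4 cohorts carried a tamoxifen-inducible CreERT2 driver of neural stem and progenitor cells and the CAG-floxStop-Sun1/sfGFP reporter on a C57BL/6J background, so that the nuclear envelope of recombined cells was green, and all received tamoxifen at 6 to 8 weeks of age. Each cohort was 1 library from the left dentate gyri of 4 pooled mice, males and females together, and no cohort was left uninduced. The CreERT2 driver is not confined to the granule cell lineage, and the sorted nuclei included glial and vascular clusters. The deposited annotation gives a trajectory of radial glia-like cells (RGL), neuronal progenitor cells (NPC), neuroblasts (NB1 and NB2), immature granule cells (GCimm1 and GCimm2), young granule cells (GCyoung) and mature granule cells (GCmat1 and GCmat2), together with astrocytes (Astro), oligodendrocyte precursors (OPC), oligodendrocytes (Oligo) and vascular cells (Peri).

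The annotation covered 14367 of 17046 barcodes, with 2867, 4243, 3831 and 3426 nuclei in the cohorts from w1 to w8. These nuclei held between 13227971 (w1) and 28595331 (w8) UMIs (unique molecular identifiers, one per captured RNA molecule) per library, and the median per nucleus went from 4369 in w1 to 7703.5 in w8. Cluster, cohort and depth therefore moved together. In NB1 the w1, w2 and w4 libraries held 1492, 956 and 130 nuclei and w8 none, whereas in GCmat1 they held 17, 9 and 403 nuclei and w8 2927. Libraries shared 22 barcode sequences. The 3 granule neuron markers Rbfox3, Prox1 and Dcx summed to between 918 and 2209 CPM (UMIs per 1e+06 UMIs of the same nuclei) in NB1 through GCmat2, against 119.97 in OPC. The 7 interneuron markers summed to between 17.8 (NB2) and 100.2 (GCimm1) CPM along NB1 to GCmat2. All 7 were counted in NB1, GCimm1 and GCmat1. Lhx6 alone was at 0 in GCimm2 and GCyoung, Lhx6 and Vip in NB2, and 5 markers in GCmat2 (Gad2, Slc32a1, Sst, Pvalb and Vip). The part of interneurons in the results was not tested.

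Levels are given as CPM, with exact Poisson intervals that cover counting error only. Changes between clusters come from edgeR's quasi-likelihood test on UMI counts summed per library and cluster (29 sums of at least 10 nuclei), with cluster and library as terms. A gene was called where its p, adjusted by Benjamini-Hochberg over the 13513 genes, was 0.05 or less and its fold at least 1.5. The clusters were drawn by the authors from the same values, so a p here is not independent evidence for the cluster boundary. It describes how far a difference between clusters stands above the scatter left among the sums once cluster and library are fitted. The mice of a cohort were pooled and each week is 1 library, so no week has a replicate. Libraries of different weeks serve as the repeats of a cluster. Library values and their ranges refer to sums of at least 10 nuclei, which leaves out 9 nuclei of w2 in GCyoung, 9 of w2 in GCmat1 and 2 of w8 in NPC. A fitted change also differs from a plain ratio of levels. It is scaled by TMM factors (the trimmed mean of M values), and from NB1 to GCmat1 the median log2 change over all genes was -0.04 with TMM and -0.63 with UMI totals alone.

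The 4 alpha subunits lie in 2 places. On mouse build GRCm38 Scn3a (chr2:65457118-65567627, minus strand), Scn2a (chr2:65620771-65767447, plus strand) and Scn1a (chr2:66270778-66440840, minus strand) are neighbours on chromosome 2, and Scn8a is at chr15:100869858-101045938 on the plus strand. Over whole transcripts, the share of 50-base words found also in another gene's transcripts was 6.49% for Scn3a, 5.76% for Scn2a, 4.03% for Scn1a and 0.0374% for Scn8a. Reads with more than one place in the genome were left out by the authors.

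The beta subunit genes Scn3b (chr9:40269217-40291618) and Scn2b (chr9:45117782-45130070) are on the plus strand of chromosome 9. Fgf12 (chr16:28160098-28753068), Fgf13 (chrX:59062145-59568071) and Fgf14 (chr14:123977907-124677127) are on minus strands and are among the long genes of the set, with spans of 593, 505.9 and 699.2 kb. Fgf13 and Fgf14 moved in opposite directions from NB1 to GCmat1, and a promoter of each is therefore shown as the 250 bases before a start site in RefSeq annotation of GRCm38.p6. Capitals mark matches on either strand to the E-box CAGCTG, to the related E-box with the letters CAGATG, both of a kind that proneural bHLH factors can bind, and to the GC box, which reads GGGCGG:
Fgf14 (chr14:124192547-124192796): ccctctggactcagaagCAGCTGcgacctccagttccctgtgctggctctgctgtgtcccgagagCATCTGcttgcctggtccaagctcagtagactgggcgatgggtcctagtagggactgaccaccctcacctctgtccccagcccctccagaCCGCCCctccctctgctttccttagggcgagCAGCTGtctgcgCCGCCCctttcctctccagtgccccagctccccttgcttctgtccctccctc
Fgf13, most upstream start (chrX:59585573-59585822): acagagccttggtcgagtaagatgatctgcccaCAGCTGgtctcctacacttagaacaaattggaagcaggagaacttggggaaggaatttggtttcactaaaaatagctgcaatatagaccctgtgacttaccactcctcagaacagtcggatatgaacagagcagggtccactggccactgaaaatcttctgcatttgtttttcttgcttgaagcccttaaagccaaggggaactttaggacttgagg
Fgf13, next start (chrX:59567349-59567598): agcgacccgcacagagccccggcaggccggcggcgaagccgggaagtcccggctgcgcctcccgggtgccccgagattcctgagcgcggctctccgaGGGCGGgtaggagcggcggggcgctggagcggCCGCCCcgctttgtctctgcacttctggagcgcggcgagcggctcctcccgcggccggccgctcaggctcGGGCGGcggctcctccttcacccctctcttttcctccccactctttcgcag
The Fgf14 window held 2 matches to CAGCTG, with 1 match to the E-box CAGATG and 2 matches to the GC box. It belongs to a start inside the Fgf14 span (chr14:123977907-124677127, minus strand), not at the upstream end of that span, and no other Fgf14 window was found. The most upstream Fgf13 window held 1 match to CAGCTG, and the next Fgf13 window held 3 matches to the GC box. Of the 2 further Fgf13 windows, which are not printed, one (chrX:59166089-59166338) held no match and the other (chrX:59134437-59134686) held 4 matches to the GC box. Of all 32851 promoters of the same length, 13.0% held the E-box CAGCTG, 14.4% of them held the E-box CAGATG, and 32.7% held the GC box, so a match in any one window is a description of its letters. RefSeq windows were found for 7 of the 9 genes, with none for Scn3a or Scn3b.

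From neuroblast to mature granule cell (NB1 to GCmat1), 8 of the 9 genes were called higher and Fgf13 was called lower, with limits for Fgf12 and Scn2b given below. Over all genes tested 20.2% were called higher and 19.9% lower in this comparison, 40.1% in either direction. On the log2 scale the largest fitted change was that of Fgf14, at 3.36 ± 0.26 (SE; edgeR adjusted p = 3.91e-16), followed by Scn3b at 2.18 ± 0.19 (adjusted p = 6.37e-14), Scn2a at 2.08 ± 0.21 (2.39e-12), Scn1a at 1.91 ± 0.21 (3.83e-11), Scn8a at 1.86 ± 0.19 (5.95e-12) and Scn3a at 1.61 ± 0.18 (4.53e-11). Scn2b changed by 1.59 ± 0.38 (adjusted p = 0.000474) and Fgf12 by 0.67 ± 0.20 (adjusted p = 0.0046). Fgf13 fell by 1.86 ± 0.25 (adjusted p = 8.11e-09). Both clusters were held by 2 libraries, w1 with only 17 GCmat1 nuclei and w4. The paper reports GCmat1 mainly in w8, and the origin of the GCmat1 nuclei of w1 was not tested. In these 2 libraries 8 genes moved the same way. For Fgf12 they differed in sign: its plain log2 change in CPM was -0.59 in w1 and 0.11 in w4, it was 0.13 in the fit with UMI totals, and its call was lost there and without w4 or w8. The call of Scn2b was lost without w4, at which point GCmat1 shared a library with NB1 through the 17 nuclei of w1.

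**Figure D1:**
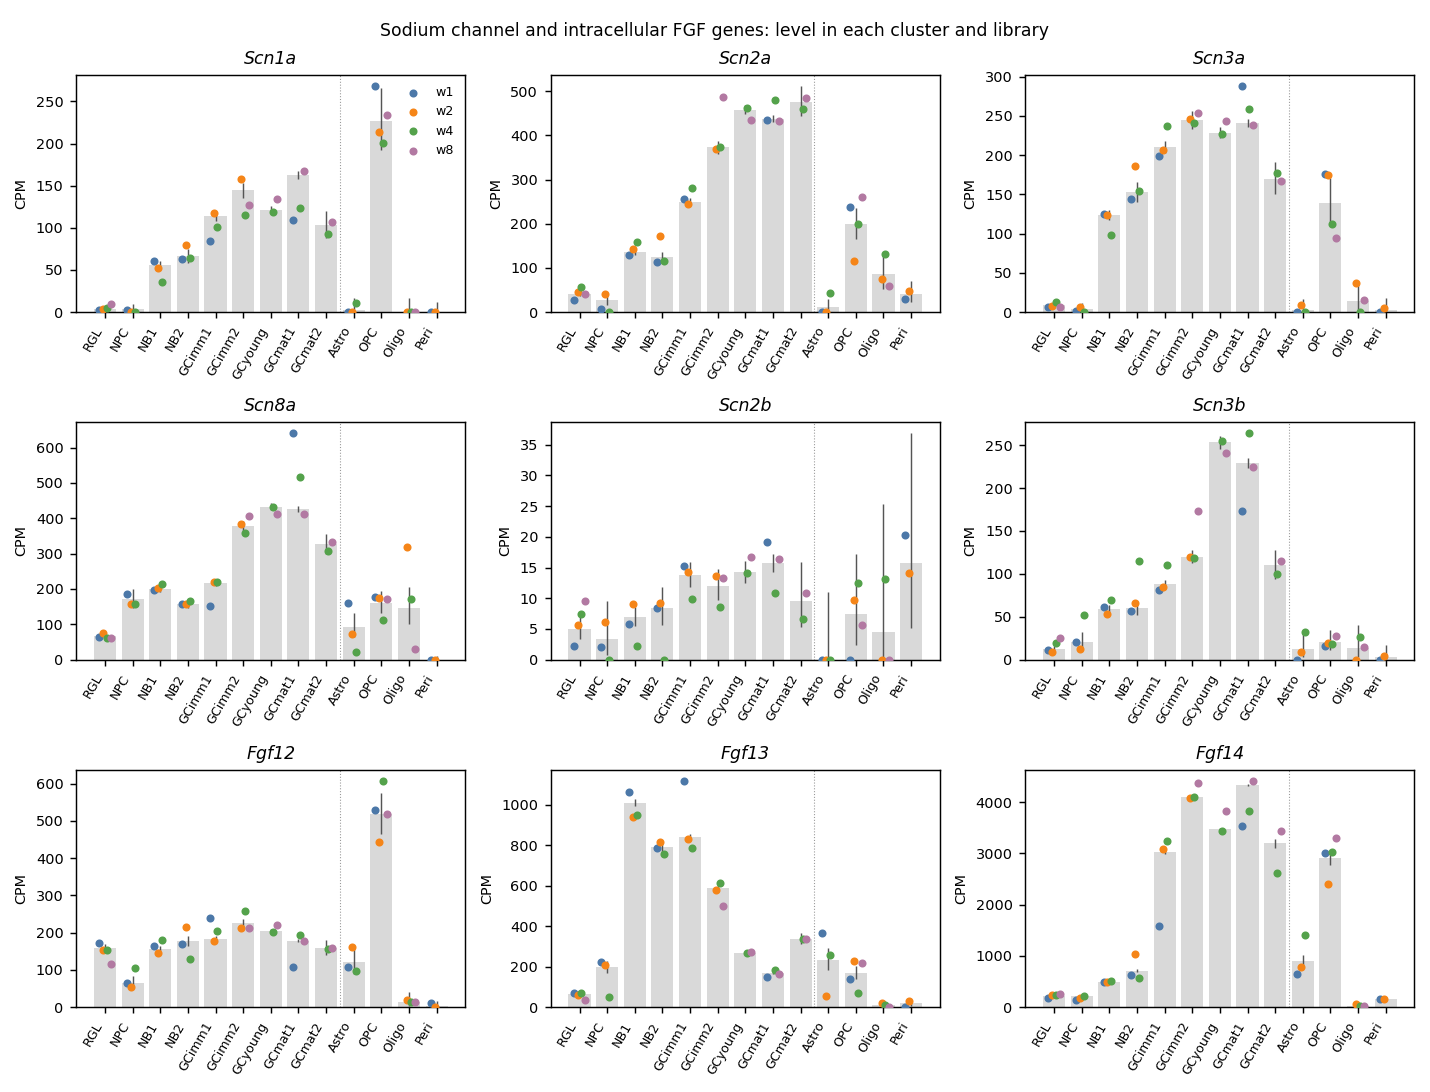
Level of each of the 9 genes (CPM, linear axis from 0) in the clusters of the trajectory and, right of the dotted line, in the other clusters, with bars for the value pooled over libraries, lines for its exact Poisson interval and 1 point per library of at least 10 nuclei. Along the trajectory Fgf13 stands highest in NB1 and lowest in RGL, Fgf14 rises from 488 in NB1 to 4333 in GCmat1, and the alpha subunits Scn1a and Scn3a are near 0 before NB1.

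For 6 of the 9 genes the largest called change between neighbouring clusters was that from NPC to NB1, the entry into the neuroblast state. Of all genes tested 29.3% were called from NPC to NB1, and how many had their largest change there was not counted. The step before, from RGL to NPC, was mixed. Between RGL and NPC 4 of the 9 genes were called, 2 higher and 2 lower, where 29.5% of all genes were called (13.7% higher and 15.9% lower). Scn8a, the alpha subunit of nodes and mature axon initial segments, was seen in fewer RGL nuclei (21.4%) than oligodendrocyte nuclei (35.6%), although in 0 of 60 vascular nuclei. Its pooled RGL level, 67.4 CPM [61.0-74.2], was above the vascular level (0, upper bound 11.7) but below the oligodendrocyte level (146 [99.6-206]). Whether Scn8a in RGL stands above background therefore depends on the cluster compared. It stood at 64.4, 74.7, 62.6 and 60.6 CPM in the RGL of w1, w2, w4 and w8. In NPC it stood at 184, 157 and 157 (w1, w2, w4), above every RGL library, and it rose by 1.04 ± 0.23 on the log2 scale (edgeR adjusted p = 0.000251). Fgf13 also rose, by 1.22 ± 0.28 (adjusted p = 0.000404), from 70.5, 61.1, 71.4 and 35.1 in the RGL libraries to 222 in w1 and 206 in w2, while the 22 NPC nuclei of w4 gave 52.4 (4 UMIs), within the RGL range. Its groups thus overlapped through w4.

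Fgf12 and Scn2a were the genes called lower at this step. Fgf12 stood at 171, 154, 153 and 115 CPM in RGL and at 66.1, 55.5 and 105 in NPC, so every NPC library was below every RGL library, and it fell to a level 2.83-fold lower (SE 0.26 on the log2 scale, adjusted p = 5.84e-06). Scn2a stood at 27.8, 46.5, 57.4 and 41.4 in RGL and at 8.02 (w1), 40.0 (w2) and 0 (w4) in NPC. It fell by 1.36 ± 0.41 (adjusted p = 0.00873), its groups overlapped through w2, and the call was lost without w1 or without w4. Its unthinned share of nuclei in RGL, 14.7%, was no higher than the 24.4% of oligodendrocyte nuclei, so its RGL level cannot be told apart from background. Fgf14 was at 184, 231, 238 and 258 in RGL and at 142, 169 and 210 in NPC, with a log2 change of -0.66 ± 0.28 (adjusted p = 0.066) that passed in 7 of 12 alternatives. NPC of w8 consisted of 2 nuclei that held 63 of the 205 NPC Fgf14 UMIs and 2 of the 3 Scn1a UMIs, and they were not in the fit. Without them the pooled NPC level was 158 [133-186] for Fgf14 and 1.11 [0.0281-6.19] for Scn1a.

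From NPC to NB1 7 of the 9 genes were called higher and none lower, against 14.7% of all genes higher, 14.6% lower and 29.3% in either direction. Scn1a, Scn3a and Scn2a, the 3 neighbours on chromosome 2, were among them. In NPC of w1, w2 and w4 Scn3a had 1, 2 and 0 UMIs and Scn1a 1, 0 and 0, so their folds are bounded by counting only. Within w1 Scn3a went from 2.00 to 125 CPM, a log2 change of 5.96 with a counting interval of 3.48 to 11.3, and Scn1a went from 2.00 to 60.2, a log2 change of 4.91 [2.42-10.2]. The adjusted p of edgeR was 1.3e-14 for Scn3a and 1.16e-09 for Scn1a. Scn2a stood at 129, 142 and 159 in NB1 of w1, w2 and w4, above all NPC libraries, and rose by 3.09 ± 0.36 (adjusted p = 5.12e-10). It was seen in 6.6% of NPC nuclei, against 24.4% of oligodendrocyte and 16.7% of vascular nuclei. Its fold thus starts from a level not shown to stand above background.

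The intracellular FGFs rose at the same step, all 3 of them. Fgf13 reached 1062, 941 and 952 CPM in NB1 of w1, w2 and w4, at least 941 where the NPC libraries gave at most 222, and rose by 2.66 ± 0.26 (adjusted p = 4.74e-12). Fgf14 reached 488, 486 and 506, a change of 1.83 ± 0.28 (adjusted p = 5.36e-07). Its NPC level without w8 was 158 [133-186], near the 152 [112-201] of vascular nuclei. It was above the 31.9 [12.8-65.7] of oligodendrocyte nuclei. The Fgf14 fold thus starts from a level not shown to stand above the vascular one, and whether it stands above background depends on the cluster compared. Fgf12 came back to 164, 144 and 179, a change of 1.51 ± 0.26 (adjusted p = 5.84e-06), which brought it back near its RGL levels. Scn3b rose by 1.78 ± 0.35 (adjusted p = 4.35e-05), to 61.1, 53.3 and 69.5. Scn8a stood at 197, 202 and 213 in NB1 with a change of 0.51 ± 0.22 (adjusted p = 0.073), and Scn2b changed by 1.27 ± 0.77 (adjusted p = 0.227). The pooled Scn8a level was 172 [146-201] in NPC and 199 [191-208] in NB1. Both intervals overlapped that of oligodendrocytes, 146 [99.6-206], and stood above the vascular level (0, upper bound 11.7). Whether Scn8a stands above background in NPC or NB1 thus depends on the cluster compared.

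**Figure D2:**
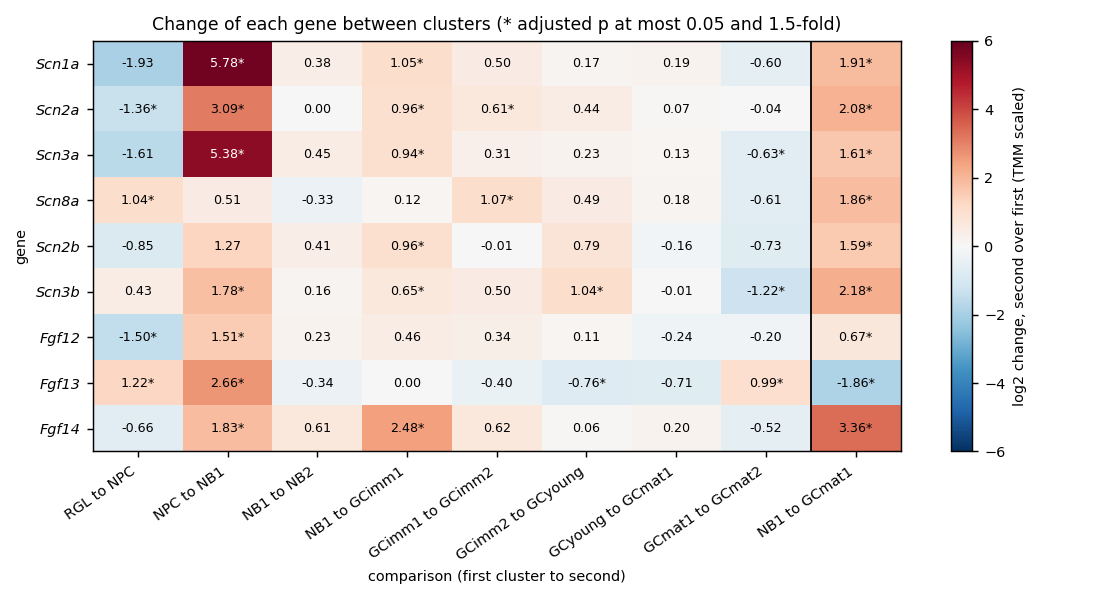
Fitted log2 change (second cluster over first, colour and printed value) of each of the 9 genes (rows) in each comparison (columns), with a star for called genes and the span from NB1 to GCmat1 set apart at the right. From NPC to NB1 7 genes carry a star, from NB1 to NB2 and from GCyoung to GCmat1 none does, and after NB1 Fgf13, Scn3a and Scn3b have stars in both directions.

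The courses of the alpha subunits after NB1 are given in turn, and differences between them were not tested. Scn3a, the developmental subunit, stood at 125, 124 and 98.6 CPM in NB1 (w1, w2, w4), at 198, 207 and 238 in GCimm1, and at 246, 241 and 253 in GCimm2 (w2, w4, w8). It remained at 227 and 243 in GCyoung (w4, w8) and at 288, 259 and 238 in GCmat1 (w1, w4, w8). The ranges of GCimm1, GCimm2, GCyoung and GCmat1 overlapped from neighbour to neighbour in the order of their levels, and a fall of Scn3a with maturation was not detectable between these clusters. Its single called step after NB1 within the path to GCmat1 was NB1 to GCimm1, 0.94 ± 0.15 on the log2 scale (adjusted p = 4.22e-06).

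Scn1a, which is best known from interneurons, was the lowest of the 4 alpha subunits per length in NB1 and GCmat1. It stood at 60.2, 52.4 and 35.8 CPM in NB1, at 84.0, 117 and 101 in GCimm1, at 158, 116 and 127 in GCimm2 and at 109, 124 and 168 in GCmat1. NB1 and GCimm1 did not overlap, and the change between them was 1.05 ± 0.18 (adjusted p = 8.16e-06). Per kilobase of gene span its level was 0.331 CPM in NB1, against at least 0.921 for the other alpha subunits, and 0.954 in GCmat1, against 2.98 for Scn2a, 2.42 for Scn8a and 2.18 for Scn3a.

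Scn2a, the subunit of young axons and unmyelinated fibres, climbed over several clusters. Its libraries gave 256, 244 and 280 CPM in GCimm1 (w1, w2, w4), 369, 373 and 486 in GCimm2 (w2, w4, w8), 461 and 435 in GCyoung (w4, w8) and 435, 480 and 432 in GCmat1 (w1, w4, w8). NB1 to GCimm1 (0.96 ± 0.19, adjusted p = 0.000112) and GCimm1 to GCimm2 (0.61 ± 0.19, adjusted p = 0.0301) were called. The second of these calls was lost in 5 of 12 alternatives, namely without a library term, with UMI totals and without w2, w4 or w8, where the change ran from 0.50 to 0.73 over all alternatives.

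Scn8a was the only one of the 4 alpha subunits whose largest called step after NB1 came after GCimm1. It stood at 153, 219 and 220 CPM in GCimm1 of w1, w2 and w4, near its NB1 level (change 0.12 ± 0.18, adjusted p = 0.776), and at 384, 359 and 406 in GCimm2 of w2, w4 and w8. The GCimm2 libraries all stood above the GCimm1 libraries, and the rise was 1.07 ± 0.18 (adjusted p = 1.3e-05) and was called under all 12 alternatives. It then stood at 433 and 412 in GCyoung (w4, w8) and at 640, 516 and 413 in GCmat1 (w1, w4, w8). Scn1a (0.50 ± 0.17, adjusted p = 0.0455) was below the fold of 1.5 at the step where Scn8a rose.

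In counts of genes, 6 of the 9 were called higher from NB1 to GCimm1 against 7.76% of all genes higher and 4.75% lower (12.5% in all), and 2 of 9 from GCimm1 to GCimm2 against 6.52% higher and 2.91% lower (9.43% in all). From NB1 to NB2 none was called where 2.94% of all genes were, 1.81% higher and 1.13% lower. Scn3a and Fgf14 were at an unadjusted p under 0.05 there in edgeR, and Fgf14 was called with RLE (relative log expression) scaling and with sums of at least 20 nuclei. From GCyoung to GCmat1 none was called where 3.85% of all genes were (1.6% higher and 2.25% lower), and Fgf13 was the 1 gene at an unadjusted p under 0.05 (change -0.71 ± 0.25, adjusted p = 0.121). DESeq2 gave 0 calls among the 9 genes from NB1 to NB2 and 0 from GCyoung to GCmat1.

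The beta subunits differed in level, and a difference in timing between them was not tested. Scn3b, which modulates channel inactivation, stood at 80.9, 84.9 and 110 CPM in GCimm1 (w1, w2, w4) and at 119, 119 and 173 in GCimm2 (w2, w4, w8). In GCyoung it stood at 255 (w4) and 240 (w8), above all GCimm2 libraries, and in GCmat1 at 173, 264 and 225 (w1, w4, w8). The rise from GCimm2 to GCyoung was 1.04 ± 0.19 (adjusted p = 2.44e-05), and the 9 GCyoung nuclei of w2, outside the fit, gave 122 (12 UMIs). Without w4, which leaves 1 library of GCyoung, the change was 0.57 and not called. In this comparison 1 of 9 genes was called higher and 1 lower, where 9.27% of all genes were higher and 9.62% lower (18.9% in all). From NB1 to GCimm1 Scn3b changed by 0.65 ± 0.17 (adjusted p = 0.00569), a call that was lost with DESeq2, with UMI totals and without w2.

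Scn2b, which is disulfide-linked to the alpha subunit, had the fewest UMIs of the 9 genes, 1143 over all annotated nuclei, and the shortest span (12.3 kb). It stood at 5.81, 9.05 and 2.24 CPM in NB1 (w1, w2, w4) and at 19.2, 10.8 and 16.5 in GCmat1 (w1, w4, w8), with 3 UMIs in the w1 sum. Its groups did not overlap, although each within-library interval of the change included 0. The call from NB1 to GCimm1 (0.96 ± 0.29, adjusted p = 0.0174) was lost without w1, w2 or w4. The whole of Scn2b lies inside the opposite-strand lincRNA Gm10684, which had 1124 UMIs, and whether counting used strand is not given in the sources used here, so reads of the pair cannot be told apart with certainty. Per kilobase of span Scn3b was at 10.2 and Scn2b at 1.28 in GCmat1, where Scn1a, Fgf13 and Fgf12 were lower (0.954, 0.330 and 0.301). Relative to one another, the UMIs of Scn2b over those of Scn3b went from 0.118 [0.0913-0.150] in NB1 to 0.0688 [0.0625-0.0757] in GCmat1 when libraries were pooled. Within w1 and w4 the ratio of GCmat1 was 1.17 and 1.27 times that of NB1. The counting intervals of the 2 clusters overlapped in both libraries, with 3 Scn2b UMIs in GCmat1 of w1 and 1 in NB1 of w4. No direction of the ratio is thus shown within libraries.

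The intracellular FGFs showed the clearest exchange of one member for another. Pooled over libraries Fgf13 was at its highest in NB1. In GCimm1 it stood at 1119, 834 and 787 CPM in w1, w2 and w4, with a fitted change from NB1 of 0.00 ± 0.21 (adjusted p = 0.999). The plain log2 change was 0.08 within w1, -0.17 within w2 and -0.27 within w4. It stood at 578, 613 and 500 in GCimm2 (w2, w4, w8), at 268 and 274 in GCyoung (w4, w8) and at 147, 186 and 164 in GCmat1 (w1, w4, w8). Its groups were separate at each of these later steps. The fall from GCimm2 to GCyoung was called (fell by 0.76 ± 0.26, adjusted p = 0.0298) but lost without a library term and without w2, w4 or w8, whereas the fall from NB1 to GCmat1 was called under all 12 alternatives, where it ran from -2.42 to -1.66.

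Fgf14 rose from NB1 to GCimm1. Its libraries gave 1586, 3081 and 3241 CPM in GCimm1 (w1, w2, w4), where w1 was well below the others, and 4079, 4097 and 4377 in GCimm2 (w2, w4, w8). In GCyoung it stood at 3434 and 3823 (w4, w8) and in GCmat1 at 3535, 3828 and 4413 (w1, w4, w8). Every GCimm1 library was above every NB1 library, and the change was 2.48 ± 0.24 (adjusted p = 1.06e-11), called under all 12 alternatives at 2.29 to 2.84. The plain log2 change was 1.70 within w1, 2.66 within w2 and 2.68 within w4. Beyond GCimm1 no step of Fgf14 was called, although GCimm1 to GCimm2 (0.62 ± 0.24, adjusted p = 0.0918) passed in 5 of 12 alternatives. The opposite-strand RNA 1700024B18Rik inside Fgf14 had 2270 UMIs against 273983 for Fgf14.

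Fgf12 by comparison changed less between the clusters after NPC. After its NPC low it stood between 144 and 259 CPM in all libraries from NB1 to GCyoung other than the 18 NB2 nuclei of w4 (128), and at 109, 193 and 177 in GCmat1 (w1, w4, w8). In the order of its levels the library ranges of all trajectory clusters other than NPC overlapped from neighbour to neighbour.

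The exchange is seen without gene length in the ratio of Fgf14 to Fgf13 UMIs. It was 0.482 [0.467-0.498] in NB1, 0.892 in NB2, 3.59 in GCimm1, 6.96 in GCimm2, 12.9 in GCyoung and 25.9 [25.2-26.7] in GCmat1. In single libraries NB1 gave 0.459, 0.517 and 0.532 and GCmat1 gave 20.6 (w4) and 26.8 (w8) with w1 between them. The ratio was 52.2 times higher in GCmat1 within w1, whose few GCmat1 nuclei carry the limit given above, and 38.8 times within w4. GCimm1 of w1 stood at 1.42, against 3.70 in w2 and 4.12 in w4. Per kilobase of span Fgf13 exceeded Fgf14 in NB1 (2.00 against 0.698) and Fgf14 exceeded Fgf13 in GCmat1 (6.20 against 0.330). The ratio of Fgf12 to Fgf14 went from 0.322 in NB1 to 0.0412 in GCmat1, a fall also seen within w1 (0.0916 times) and w4 (0.142 times).

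**Figure D3:**
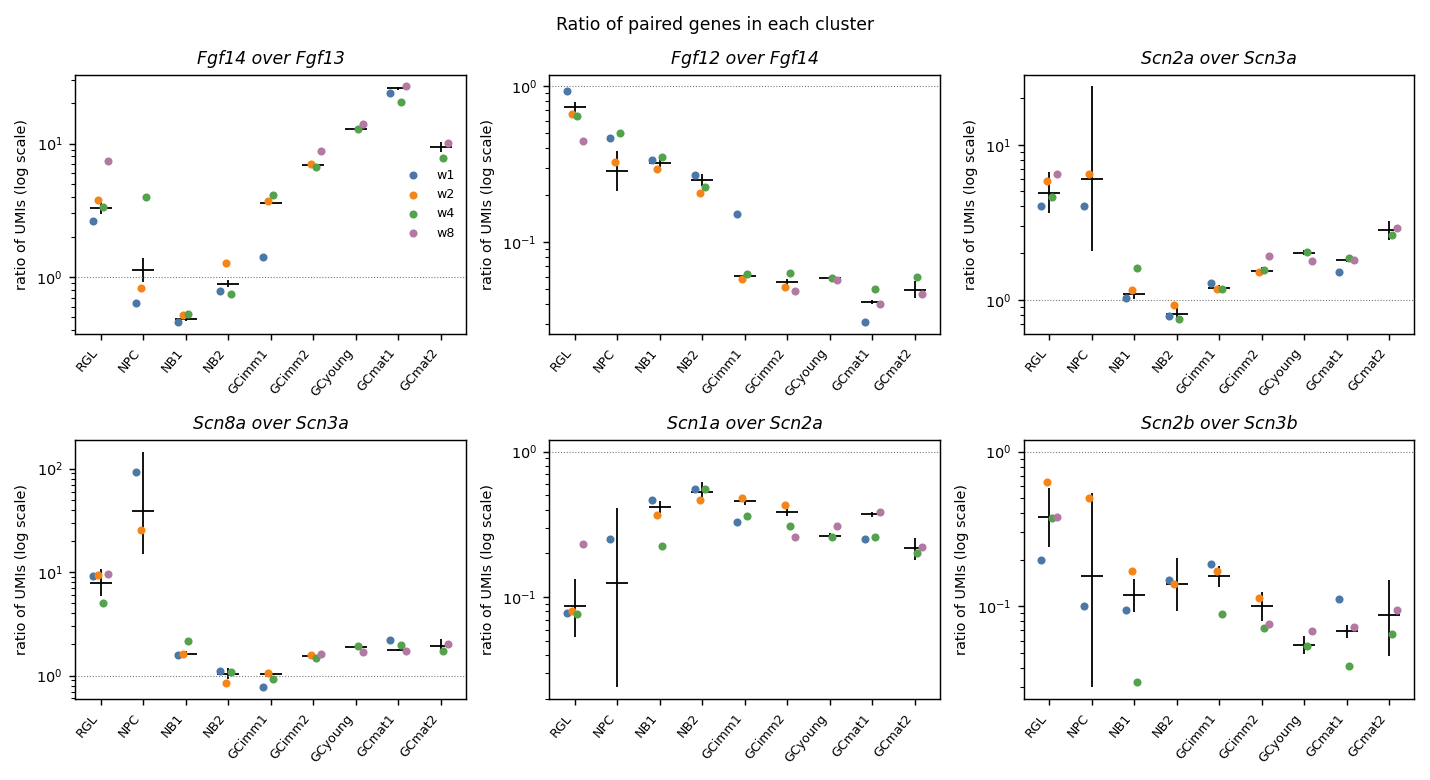
Ratios of UMIs of paired genes (log axis) in the 9 clusters of the trajectory, pooled over libraries as black marks with exact counting intervals, with 1 coloured point per library and a dotted line at 1 (the NPC marks include the 2 nuclei of w8). Fgf14 over Fgf13 climbs from 0.482 in NB1 to 25.9 in GCmat1, and its NPC mark is at 1.13 with those 2 nuclei but at 0.780 [0.622-0.977] without them, whereas the pooled ratios between alpha subunits stay between 0.216 and 2.81 from NB1 to GCmat2.

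From NB1 to GCmat1 the ratios between alpha subunits changed less. Scn2a over Scn3a was 1.09 [1.02-1.18] in NB1, 0.816 in NB2, 1.19 in GCimm1, 1.53 in GCimm2, 2.01 in GCyoung and 1.82 [1.77-1.87] in GCmat1. From NB1 to GCmat1 it was 1.66 times higher pooled, 1.47 times within w1 and 1.15 times within w4. Ratios in RGL are left out for these genes, since the shares of nuclei with Scn2a, Scn3a or Scn8a there (14.7%, 3.32% and 21.4%) were no higher than in oligodendrocytes (24.4%, 4.44% and 35.6%). Scn8a over Scn3a was 1.61 in NB1, 1.03 in GCimm1 and 1.77 in GCmat1. Scn1a over Scn2a was 0.416 [0.378-0.458] in NB1 and 0.371 [0.358-0.383] in GCmat1. The point values of its change from NB1 to GCmat1 had opposite directions in w1 (0.535 times) and w4 (1.15 times). Within each of these libraries the counting intervals of the 2 clusters overlapped.

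Along the deposited pseudo-time, which places nuclei between RGL and GCmat1 and is not given for 732 annotated nuclei, the levels of the genes changed in different bins. The values below are pooled over libraries in bins of equal width, and the pseudo-time was computed by the authors from the same counts. Scn3a was at 14.0 CPM at a median pseudo-time of 7.89 and at 99.9 at 9.97, whereas Scn1a was at 8.32 there, at 21.5 at 11.5 and at 82.4 at 13.8. Relative to their own highest bins (274 and 163), Scn3a and Scn1a passed the midpoint in the same bin, at 13.8 (145 and 82.4). Fgf12 was at 85.7 at 9.97, at 192 at 13.8, at its highest, 281, at 24.8 and at 179 at 30.2. Fgf13 peaked at 1171 at 13.8, among NB1 nuclei, and was at 168 at 30.2. Fgf14 was at 610 at 13.8, at 1830 at 16.0 and at 3774 at 17.8, and its ratio to Fgf13 went from 0.521 to 1.87 between the first 2 of these bins.

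Later along the same axis Scn8a went from 182 at 16.0 to 229 at 17.8, 368 at 19.8 and 504 at 21.3. Scn3b was at 117 at 19.8 and came to its highest level, 289, at 28.3. Scn2a was at 466 at 26.4. The bins with the highest level of Scn2a, Scn3a, Scn8a and Scn2b moved to later pseudo-times when bins of equal numbers of nuclei were used, so the place of their maxima is not fixed by these data.

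**Figure D4:**
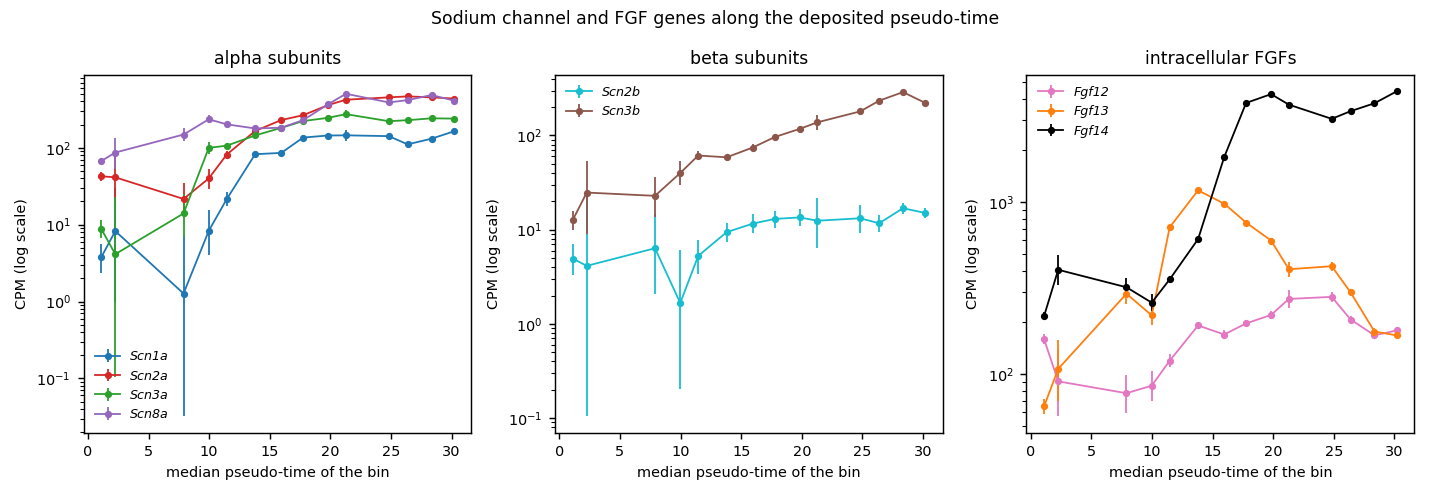
Level of each of the 9 genes (CPM, log axis) against the median pseudo-time of each of 14 bins of at least 20 nuclei, pooled over libraries, with exact Poisson intervals. Fgf13 peaks at 13.8, where Fgf14 is at 610. Scn3a reaches 99.9 CPM before Scn1a passes 21.5, although both pass the midpoint of their own maxima at 13.8.

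The share of nuclei with at least 1 UMI followed the levels, as far as depth allows. Each nucleus was thinned to 2000 UMIs, which leaves out 141 shallower nuclei, and unthinned shares are given in parentheses. Fgf14 was seen in 34.6% (42.2%) of NB1, 92.0% (95.4%) of GCimm1 and 99.9% (100%) of GCmat1 nuclei. Fgf13 was seen in 67.1% (76.4%) of NB1 and 25.8% (62.6%) of GCmat1 nuclei. Among 45 oligodendrocyte nuclei, with a median of 4801 UMIs against 4057.5 in NB1 and 8138 in GCmat1, the unthinned share was 11.1% for Fgf14 and 4.44% for Fgf13. In the 60 vascular nuclei Fgf14 was seen in 21.7% (exact interval 12.1% to 34.2%), against 24.6% of RGL and 22.3% of NPC nuclei, so these shares are not shown to stand above background. The pooled vascular level of Fgf14 was 152 CPM [112-201]. By counting error alone RGL stood above it, at 216 [205-228], and NPC without w8, at 158 [133-186], did not. Both stood above the oligodendrocyte level of Fgf14, 31.9 [12.8-65.7] from 7 UMIs. Scn8a was seen without thinning in 35.6% of the oligodendrocyte nuclei, where library values ran from 0 (6 nuclei of w1) to 319 CPM (10 nuclei of w2), in 0 of 60 vascular nuclei (exact upper bound 5.96%; median 5108 UMIs) and in 21.4% of RGL nuclei (median 4091 UMIs). Scn2a was seen in 16.7% of the vascular nuclei. Scn2b was seen in at most 12.2% (GCmat1; 2.86% thinned) of the nuclei of any trajectory cluster without thinning, in 1 of the 45 oligodendrocyte nuclei and in 4 of 60 vascular nuclei (6.67%; 3.33% thinned). Its pooled vascular level, 15.8 CPM [5.13-36.9] from 5 UMIs, was as high as that of GCmat1, so Scn2b is not shown to stand above background in any trajectory cluster. Scn1a was in 0 of 45 oligodendrocyte nuclei and in 27.0% (64.3%) of GCmat1 nuclei.

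**Figure D5:**
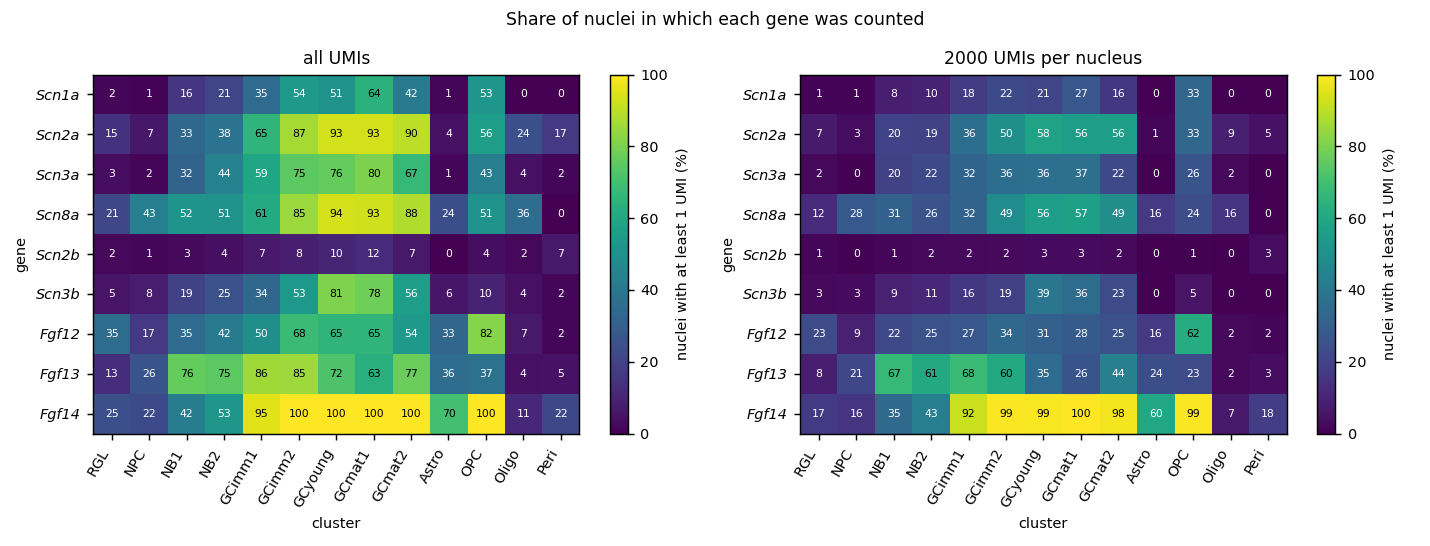
Share of nuclei (percent, colour and rounded value) with at least 1 UMI of each of the 9 genes in each cluster, with all UMIs at the left and every nucleus thinned to 2000 UMIs at the right. In the thinned nuclei Fgf14 is seen in 99.9% of GCmat1 nuclei and Fgf13 in 25.8%, and Scn2b reaches at most 2.86% along the trajectory.

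The second mature cluster, GCmat2, differed from GCmat1 in 3 of the 9 genes, 1 higher and 2 lower, where 3.01% of all genes were higher and 4.28% lower (7.3% in all). It held 60 nuclei in w4 and 149 in w8. Fgf13 stood at 338 in both libraries of GCmat2, above all GCmat1 libraries, and its change was 0.99 ± 0.26 (adjusted p = 0.00795), lost without a library term or without w8. Scn3b stood at 99.5 (w4) and 115 (w8), below all GCmat1 libraries, and fell by 1.22 ± 0.20 (adjusted p = 1.28e-05), a call kept under all 12 alternatives. Scn3a stood at 177 and 167, and its change of -0.63 ± 0.19 (adjusted p = 0.0232) was called in only 4 of 12 alternatives. Scn2a, at 460 and 484, differed by -0.04 ± 0.21 (adjusted p = 0.952), with Scn8a at -0.61 ± 0.20 (adjusted p = 0.0566) and Scn1a at -0.60 ± 0.21 (adjusted p = 0.0705). Fgf14 stood at 2615 and 3430, a change of -0.52 ± 0.27 (adjusted p = 0.314). The Fgf14 to Fgf13 ratio of GCmat2 was 9.44 [8.63-10.3]. Within GCmat1 of w8, 216 nuclei that have no pseudo-time held Fgf14 at 4953 and Scn8a at 345, against 4356 and 420 in the 2711 nuclei that have one.

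Of the 4 clusters outside the trajectory, oligodendrocyte precursors held the highest pooled level of 7 of the 9 genes. In them the 3 markers Pdgfra, Cspg4 and Prkg2 summed to 1380 CPM and the vascular markers to 0. Fgf12 was at 529, 443, 607 and 518 CPM in OPC of w1, w2, w4 and w8, above every trajectory library of at least 10 nuclei, the highest of which was 259 (GCimm2 of w4), and above the 263 (27 UMIs) of the 9 GCmat1 nuclei of w2. Fgf14 in OPC was at 3014, 2394, 3030 and 3292, within the range of the granule clusters. Scn1a was at 268, 214, 200.4 and 234, above the highest trajectory library of at least 10 nuclei (168, GCmat1 of w8), although the 9 GCmat1 nuclei of w2 gave 283 (29 UMIs). Scn2a was at 238, 117, 200.4 and 262. Scn3b was at 20.7 [11.3-34.8] pooled, near its NPC level. In 67 astrocyte nuclei Fgf14 was at 651, 774 and 1409 in w1, w2 and w4, and Fgf13 at 368, 53.4 and 260, with Scn1a and Scn3a at 1 UMI each.

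Other genes around the channel were taken from 5 lists of known roles. Of the other sodium channel and FGF genes, 4 of 9 had enough UMIs to be tested, and from NB1 to GCmat1 2 were higher and 1 lower (median log2 change 0.37, against -0.04 over all genes, of which 20.2% were higher and 19.9% lower). Scn9a, a further alpha subunit, rose by 2.33 ± 0.34 from NB1 to GCimm1 (adjusted p = 5.74e-07), from 3.30 to 19.0 CPM. Its pooled level was highest in GCimm2, at 54.4 CPM, and stood at 17.1 in GCyoung and 25.7 in GCmat1. From GCimm2 to GCyoung 1 of the 4 tested genes was higher and 2 were lower (median log2 change -1.71, against 0.03 over all genes, of which 9.27% were higher and 9.62% lower). Fgf11, the least abundant intracellular FGF, fell from 12.6 to 2.19 CPM (2 UMIs) from RGL to NPC (adjusted p = 0.0115) and fell by 1.81 ± 0.50 on the log2 scale from GCimm2 to GCyoung (adjusted p = 0.00536), where it reached 1.85 CPM.

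Genes of the sodium leak channel and of the axon initial segment anchors were counted in the same comparisons, where 14.7% of all genes were called higher from NPC to NB1 and 20.2% from NB1 to GCmat1. Of the 4 tested genes of the leak channel complex, 3 were higher from NPC to NB1 and 4 from NB1 to GCmat1 (median log2 change 1.80). Unc80, its scaffold, rose by 3.40 ± 0.21 from NB1 to GCmat1 (adjusted p = 5.61e-20), Fam155a, an auxiliary subunit, rose by 3.45 ± 0.30 from NPC to NB1 (adjusted p = 3.41e-14), and Nalcn, the pore, fell by 2.18 ± 0.36 from RGL to NPC (adjusted p = 1.87e-06). From RGL to NPC 2 of the 4 leak channel genes were higher and 1 lower (median 0.53), beside 13.7% and 15.9% of all genes. Of 5 anchor genes, 4 were higher from NPC to NB1 and 3 from NB1 to GCmat1 (median 1.36). Ank3, which encodes ankyrin-G, the scaffold that holds sodium channels in place, rose by 5.85 ± 0.32 from NPC to NB1 (adjusted p = 9.09e-21). Nrcam, an adhesion molecule of the initial segment, fell by 2.12 ± 0.24 from RGL to NPC (adjusted p = 3.58e-10) and rose by 3.07 ± 0.22 from NB1 to GCmat1 (adjusted p = 3.15e-17).

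The regulators and the sodium pump gave mixed counts. Of 7 regulators, 2 were higher from RGL to NPC, where 13.7% of all genes were, and their median log2 change from NB1 to GCmat1 was 0.03. Nedd4l, a ubiquitin ligase of sodium channels, rose by 1.37 ± 0.19 at the former step (adjusted p = 6.06e-08) and Calm2, a calmodulin gene, by 0.74 ± 0.19 (adjusted p = 0.00182). Of 9 pump genes, 1 was higher and 5 were lower from RGL to NPC (median -1.23), beside 13.7% and 15.9% of all genes. From NB1 to GCmat1 3 were higher and 2 lower (median -0.26), beside 20.2% and 19.9% of all genes. Atp1b1, a beta subunit of the pump, rose by 2.19 ± 0.21 (adjusted p = 3.81e-13). Fxyd7, a pump modulator, fell by 3.56 ± 0.47 from GCyoung to GCmat1 (adjusted p = 1.86e-07).

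Across the 29 sums the genes with the most similar pattern were named for each member by Pearson's r of log2 CPM, among 7385 genes with a mean of at least 20. The sums share libraries and depth, and no p is given. Scn1a was most like Trpc4 (r = 0.968) and Grin2a (0.962), Scn2a like 4430402I18Rik (0.983), Scn3a like Nrg3os (0.984) and Snhg14 (0.969), and Scn8a like Sptb (0.954) and Tiam1 (0.940). Scn3b was most like Dgkh (0.961) and Syt1 (0.960), and Scn2b like 4930590L20Rik (0.904) and Cdh12 (0.875). Fgf12 was most like Magi2 (0.884) and Dab1 (0.873), Fgf13 like Gdpd5 (0.930) and Ctnna2 (0.915), and Fgf14 like Rgs7 (0.956) and Dlgap1 (0.954). Among the 9 genes themselves Scn1a and Scn2a were closest (0.927) and Scn2b and Fgf13 farthest apart (0.331).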

How the data were processed

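Nuclei sorted from 4 cohorts (1 library each) were analysed from the count matrices that the authors deposited, with the cluster and pseudo-time table. Per the labels and the study's methods, the authors made these UMI counts per gene and nucleus with STARsolo 2.7.4a on mm10, counting exonic and intronic reads and leaving out multimapping reads. They removed nuclei of few features, doublets and low quality nuclei before they deposited the annotation. They also removed a group of w4 nuclei that they proposed might come from 1 male mouse, possibly an outlier. The deposited log2 expression values, which the authors normalized with scran size factors and a pseudocount of 1, entered one alternative only.

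Counts were summed per library and annotated cluster (at least 10 nuclei) and fitted with edgeR 4.0.16 in R 4.3.3 (TMM, filterByExpr, glmQLFit; 29 sums, 10 clusters, 16 residual degrees of freedom). Calls needed an adjusted p of at most 0.05 and a fold of 1.5. The scripts were tested on simulated counts. DESeq2 1.42.0, RLE factors, other filters, thinned nuclei and each library left out were alternatives, and scaling by UMI totals was added after seeing the data. Depth was 13227971 (w1), 24035927 (w2), 26083153 (w4) and 28595331 (w8) UMIs in annotated nuclei. Intervals are at the 95% level. Levels, ratios and pseudo-time bins (15, of which 14 held at least 20 nuclei) are descriptions.

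The members, the lists and the tests were chosen with earlier results of these data known, although no measured value enters the rule for the members. Named genes are the 9 members, from each list the 2 largest increases and decreases among called genes with at least 50 UMIs and one direction in every library, and the 2 genes most like each member. A few named genes and sequences that these rules give are not reported here.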

Additional observations from a re-analysis of the deposited data

Results flagged for a closer look

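In 18 groups of 4 libraries 1 library stood far from the rest, where chance alone would give about 1 in 20: Scn8a in OPC was at 112.7 CPM in w4, against 176, 175 and 173 in w1, w2 and w8, with 35 OPC nuclei in w4.

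From NB1 to GCimm1 the plain log2 change of Scn8a in CPM was -0.37 in w1 (counting interval -0.68 to -0.07) and 0.12 in w2 (interval from just above 0 to 0.23), with 0.05 in w4. The difference between libraries was not tested.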

How the results depend on the processing

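No fitted change of the 9 genes that was called reversed direction under an alternative setting. Within single libraries some changes of ratios from NB1 to GCmat1 had point values in the other direction than the pooled one. Scn2b over Scn3b was 0.586 times pooled but 1.17 in w1 and 1.27 in w4. Scn1a over Scn2a was 0.890 pooled but 1.15 in w4, and Scn8a over Scn3a 1.10 pooled but 0.923 in w4. In each of these libraries the counting intervals of NB1 and GCmat1 overlapped, so a turn is not shown. Each of the 12 alternative fits left 69 to 78 of the log2 changes of the 9 genes on the same side of the threshold. Direction was compared only where either fit called the gene, and some uncalled changes differed in sign. That of Fgf12 from GCimm2 to GCyoung ran from -0.165 to 0.239 over the alternatives. The lowest count, 69, was that of the thinned nuclei, where Scn2b had no tested value and 3 other values came to pass. Over these fits 26 values came to pass the threshold and 32 ceased to. In the alternative with deposited log2 expression, 47 differences lay at least 1 standard error of the fitted change away from it. Those differences are of mean log2 values per nucleus with a pseudocount, a scale unlike that of the fit.

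The number of the 9 genes called changed by over 1.5 times as follows, and the cause was not tested. From NB1 to NB2 it was 1 with RLE factors and 1 with sums of at least 20 nuclei (0 as reported). From NB1 to GCimm1 it was 2 at a fold of at least 2. From GCimm1 to GCimm2 it was 1 without a library term, 1 with UMI totals and 1 at a fold of at least 2, and 1 to 2 with each library left out. From GCimm2 to GCyoung it was 1 without a library term and 1 at a fold of at least 2, and 0 to 2 with each library left out. From GCyoung to GCmat1 it was 1 with no low-count filter, 1 with sums of at least 5 nuclei and 1 with UMI totals. From GCmat1 to GCmat2 it was 1 without a library term, 5 with sums of at least 20 nuclei and 1 at a fold of at least 2, and 1 to 5 with each library left out. The ratio of Scn1a to Scn2a in GCmat1 was 0.293 as a geometric mean over libraries (0.371 pooled).

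Week, cluster and depth moved together, NPC rests on 209 nuclei of 3 libraries and GCmat2 on 209 nuclei of 2, and the change of Scn2b from NB1 to GCmat1 was not detectable within w1 or w4 at this depth.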
